A study of Mus musculus with 4 samples.

Results

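Deep barcodes rich in neuronal RNA were described in 4 single-cell libraries of mouse brain that had been sorted for CD45, the surface protein of leukocytes. A barcode was a member if it held at least 5000 unique molecular identifiers (UMIs, counted RNA molecules), at most 2% of them mitochondrial. At least 4 of 10 neuronal genes (Kcnip4, Dpp10, Lingo2, Nrg1, Ptprd, Kalrn, Hs6st3, Snap25, Meg3 and Rbfox3) also had to be detected and to make up at least 0.5% of its UMIs. The members were therefore selected on measured values, and their depth, mitochondrial share and levels of these 10 genes describe that choice and are not findings. By this rule 493 of 34326 barcodes were members. Young sham held 112 of them, young CA 84, aged sham 157 and aged CA 140. Values below follow that order of libraries unless stated otherwise.

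CA stands for cardiac arrest induced with potassium chloride and followed by resuscitation, and sham mice had the same surgery without the arrest. All mice were wild-type C57Bl/6, 3 to 6 months old (young) or 18 to 20 months old (aged), and brains were taken on day 3. Each of the 4 groups was 1 library made from a pool of 3 mice whose animals cannot be told apart, so the spread between animals is unknown and no test between groups was possible. Brains were perfused, broken up mechanically, enriched for immune cells on Percoll and sorted for CD45+ cells, so no barcode was collected as a neuron. Intervals are at 95% throughout and take in only the error of counting molecules or, for shares, barcodes.

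Neurons signal to each other at synapses, and most in the forebrain release either glutamate, which excites, or GABA, which inhibits. Slc17a7 and Slc17a6 encode the transporters that load glutamate into synaptic vesicles, while Gad1 and Gad2 encode the enzymes that make GABA. Many genes of neuronal adhesion, channels and receptors span very long stretches of the genome. Neurons do not make CD45, which is encoded by Ptprc, and microglia, the resident macrophages of the brain, do.

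The libraries held 44277472 to 115892682 UMIs over 6794 to 10794 barcodes. Members made up 1.24% (interval 1.02 to 1.49), 0.778% (0.621 to 0.963), 2.04% (1.74 to 2.38) and 2.06% (1.74 to 2.43) of all barcodes. Among barcodes with at least 5000 UMIs their share was 2.24%, 1.15%, 5.90% and 3.10%. They held 6.45%, 2.21%, 10.1% and 6.89% of all UMIs of their library. Aged sham stood apart in that 823 of its barcodes met every criterion but depth, against 62, 22 and 24 in young sham, young CA and aged CA. The depth threshold ran through these neuronal barcodes in aged sham: 42 lay outside it by no more than 1000 UMIs and 16 inside by less than 1000, against 0 to 4 and 1 or 2 in the other libraries. Few barcodes lay near the other limits. Between 0 and 2 per library fell outside with rule genes at 0.4 to 0.5% of UMIs, as many as lay inside at 0.5 to 0.6%, and 1 to 5 fell outside on mitochondrial share.

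The median member had 37082, 28559.5, 18827 and 32265 UMIs, and the deepest had 139188, 73074, 116481 and 107902. As a comparison, 4893, 7186, 2418 and 4234 other barcodes with at least 5000 UMIs and at least 8 of 16 microglial genes (called microglia here) had medians of 10923, 12620, 11059.5 and 12333.5 UMIs. Members were deeper than these in all 4 libraries, at 4577 to 6269 detected genes for the median member. Only 5, 4 and 10 members of young sham, young CA and aged CA had fewer than 10000 UMIs, whereas 49 of 157 did in aged sham.

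**Figure D1:**
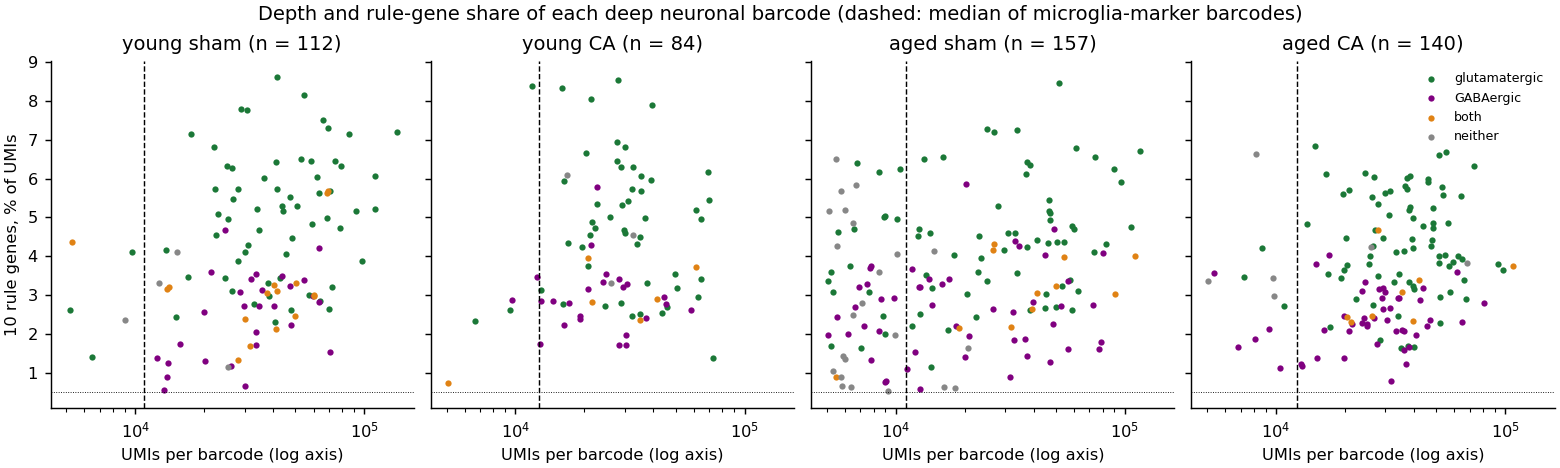
UMIs per member (horizontal, log axis) against the share of its UMIs in the 10 rule genes (vertical, percent), 1 panel per library and 1 point per member, coloured by transmitter class from all UMIs. The dashed line marks the median depth of microglia and the dotted line the 0.5% limit; the cloud of members below 10000 UMIs is largest in aged sham, with 49 of 157.

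The neuronal label was checked against its markers. Kcnip4, which encodes a partner of A-type potassium channels (chromosome 5, 48389502 to 49524907, minus strand, GRCm38), stood at 10385, 9473, 10872 and 8997 CPM, the customary scaling of counts to a common total, here the summed UMIs of the members of a library. In microglia of the same libraries it stood at 30.8, 24.4, 47.8 and 73.5 CPM. Snap25, which encodes a protein of the synaptic vesicle fusion machinery, was detected in 111, 84, 154 and 139 members at 947, 963, 816 and 1338 CPM, against 3.44 to 10.98 CPM in microglia. Rbfox3, which encodes the neuronal splicing factor NeuN, was detected in 109, 82, 138 and 138 members. The rule genes took 4.43%, 4.13%, 3.89% and 3.73% of the members' UMIs and 0.0101% to 0.0255% of those of microglia, and all 10 were detected in 60, 58, 81 and 79 members. These are the genes that chose the members, so this shows only that the label and the rule match.

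Ptprc, which the rule did not use and which encodes the protein the sort selected for, was low. It stood at 12.4, 21.8, 28.4 and 20.3 CPM in members and at 433, 425, 550 and 468 CPM in microglia. After each barcode was thinned to 5000 UMIs, 5.36%, 10.7%, 17.2% and 5% of members had a Ptprc UMI, against 80.4% to 86.6% of microglia. The RNA of the sort marker was thus lower in members than in microglia in each library, and surface protein was not measured.

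The make-up of the members' RNA also differed from that of microglia. Genes that span at least 100 kb in the annotation took 66.1%, 62.2%, 64.5% and 60.4% of members' UMIs and 26.1%, 19.0%, 24.2% and 17.7% of those of microglia. In 111 of 112, 83 of 84, 151 of 157 and 140 of 140 members this share was above the 95th percentile of microglia. Several rule genes are themselves long, so this share is not independent of the rule. The genes of cytoplasmic ribosomal proteins, which the rule did not use, took 0.246%, 0.576%, 0.474% and 0.409% in members against 4.73%, 9.24%, 6.59% and 10.7% in microglia. Malat1, a nuclear long non-coding RNA, took 2.11%, 2.23%, 2.13% and 3.10% in members and 2.31%, 1.17%, 2.20% and 1.52% in microglia. By these summed shares members lay above microglia in both CA libraries and slightly below in both sham libraries. By medians, aged sham members lay slightly above microglia, at 2.21% against 2.18%. Whether reads in introns were counted was not given in the sources used here, and what part intact cells, nuclei or fragments have in these profiles was not tested.

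Barcode sequences were compared between libraries. Between 15 and 32 barcode sequences were shared by each pair of libraries, and no sequence was a member in both. The barcodes of 6 aged CA members also occurred in aged sham. In 5 of these cases the aged sham copy held only 572 to 822 UMIs, with 1.40% to 4.08% in the rule genes, and 91.4% to 99.8% of its UMIs lay in genes detected in the aged CA member. Without the members whose barcode occurs in another library, no count of genes 2-fold apart reported below moved by 1.5 times.

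The members were split by transmitter. With each member thinned to 5000 UMIs, a glutamatergic member had a UMI of Slc17a7 or Slc17a6 and none of Gad1 or Gad2, and a GABAergic member the converse. Glutamatergic members numbered 41, 41, 54 and 47, or 36.6% (27.7 to 46.2), 48.8% (37.7 to 60.0), 34.4% (27.0 to 42.4) and 33.6% (25.8 to 42.0). GABAergic members numbered 27, 23, 43 and 44, or 24.1% (16.5 to 33.1), 27.4% (18.2 to 38.2), 27.4% (20.6 to 35.1) and 31.4% (23.9 to 39.8). The intervals of both shares overlapped between all 4 libraries. They take the barcodes of 1 library as units, so their overlap does not compare the groups. Only 1, 3, 5 and 3 members had transcripts of both kinds, and 43, 17, 55 and 46 had neither at that depth. Microglia thinned to the same depth gave 0.612% to 1.65% glutamatergic and 0.368% to 0.827% GABAergic barcodes. The source of these UMIs in microglia was not tested.

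With all UMIs counted, 64, 51, 74 and 79 members were glutamatergic, 28, 24, 49 and 47 GABAergic, 16, 6, 11 and 8 had both, and 4, 3, 23 and 6 had neither. The glutamatergic share thus moved up with depth, to 57.1%, 60.7%, 47.1% and 56.4%, while the GABAergic share stayed at 25%, 28.6%, 31.2% and 33.6%. Of the members with both, 10 of 16, 2 of 6, 5 of 11 and 5 of 8 had a single UMI on the smaller side. The 23 aged sham members with neither had a median of 6475 UMIs. Slc17a7, the main transporter of cortex and hippocampus, was detected in 76, 51, 73 and 81 members with 498, 361, 471 and 487 UMIs. Slc17a6, the main transporter of thalamus and brainstem, was detected in 16, 15, 25 and 22 members with 80, 49, 138 and 118 UMIs. Gad1 was detected in 38, 28, 55 and 50 members and Gad2 in 34, 29, 47 and 48.

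**Figure D2:**
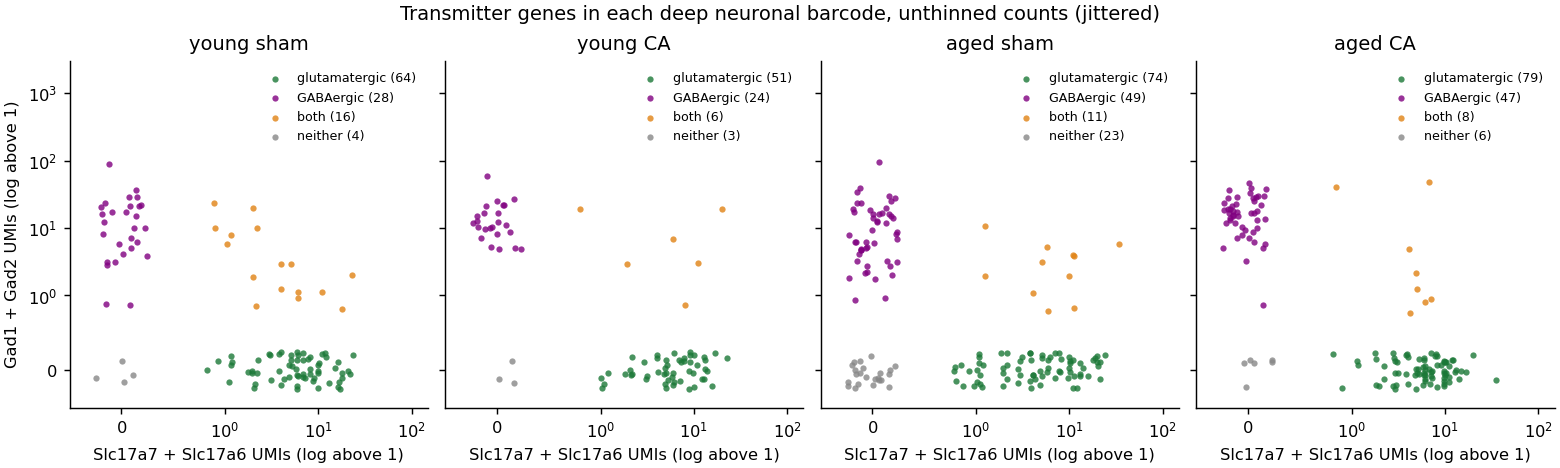
UMIs of Slc17a7 and Slc17a6 together (horizontal) against UMIs of Gad1 and Gad2 together (vertical) for every member, from all UMIs, 1 panel per library, on axes that are logarithmic above 1 with a small jitter. Most points lie along 1 axis or the other, and 16, 6, 11 and 8 members lie off both axes.

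Genes that did not define the classes separated with them in all 4 libraries. With classes from all UMIs, Sv2b, a synaptic vesicle protein, stood at 456, 461, 494 and 495 CPM in glutamatergic and 65.3, 60.6, 37.8 and 63.2 CPM in GABAergic members. Slc32a1, which loads GABA into vesicles, went the other way, at 0 to 0.664 CPM in glutamatergic and 33.2, 36.0, 38.6 and 47.7 CPM in GABAergic members. Dlx6os1, a non-coding RNA of forebrain inhibitory neurons, had no UMI in glutamatergic members of any library and stood at 259, 231, 189 and 156 CPM in GABAergic members. For each of these 3 genes the values of the 2 classes did not overlap across the libraries.

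2 of the rule genes were also unequal between the classes. Ptprd, a receptor phosphatase of synapse formation, stood at 14098, 8905, 10069 and 8610 CPM in glutamatergic and 2594, 2741, 2324 and 2003 CPM in GABAergic members. Dpp10, a partner of A-type potassium channels, stood at 7372, 7047, 5286 and 6258 CPM against 1449, 2044, 893 and 1235 CPM. Both are genes of the rule, so these levels are a description.

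Within GABAergic members, genes of striatal projection neurons and of cortical interneurons were both present. Drd2, the dopamine receptor of indirect pathway striatal neurons, stood at 71.5, 91.7, 34.7 and 116 CPM, and Drd1, that of the direct pathway, at 41.4, 26.2, 17.7 and 34.5 CPM. Rgs9, a striatal regulator of G protein signalling, stood at 349, 261, 193 and 293 CPM, and in glutamatergic members at 12.6 to 37.2 CPM. Adarb2, a gene of interneurons from the caudal ganglionic eminence, stood at 2336, 3563, 1723 and 2167 CPM. The interneuron peptides were uneven: Vip stood at 1.04, 298, 42.4 and 38.2 CPM and Sst at 7.25, 36.0, 91.0 and 41.1 CPM. Each of these values is the sum of 24 to 49 GABAergic members of 1 library.

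Regional lists were scored as members with at least 2 list genes after thinning, beside the same share in microglia. The list of hippocampal CA fields (Ammon's horn, not cardiac arrest) was met by 29.5%, 45.2%, 22.9% and 40.7% of members and 0.0409% to 0.207% of microglia. The striatal list was met by 31.2%, 44.0%, 44.6% and 37.9% of members and 0.0708% to 0.455% of microglia. For cortical interneurons the share was 33.9%, 34.5%, 40.8% and 35%. Upper cortical layers reached 55.4%, 59.5%, 58.0% and 57.9%, over a microglial background of 6.00% to 17.3%, and deep layers 61.6%, 48.8%, 53.5% and 46.4%. The hippocampal dentate gyrus list was met by 8.93%, 3.57%, 10.2% and 3.57% of members. The thalamic list was met by 7.14%, 5.95%, 17.2% and 4.29% of members but by 22.7% to 37.0% of microglia, so it does not show thalamic neurons. The Purkinje cell list was met by 58, 50, 77 and 78 members, but its defining genes Pcp2 and Ppp1r17 had no UMI in the glutamatergic or GABAergic members of any library. Only 3, 0, 2 and 2 members met the cerebellar granule cell list and 1, 0, 1 and 1 the monoamine and cholinergic list. The lists did not follow the transmitter classes closely. The striatal list was met by 20.3% to 40.5% of glutamatergic and 48.9% to 66.7% of GABAergic members, and the deep layer list by 40.5% to 51.4% and 55.1% to 85.7%. They therefore describe which genes were present and assign no member to a region.

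Lists of other brain cells were at unequal levels in the members. The endothelial list summed to 1.84 to 6.93 CPM, the mural list to 0.854 to 3.13 CPM and the ependymal list to 1.92 to 9.16 CPM. The astrocyte list summed to 639, 456, 569 and 530 CPM. Within it Slc1a2, a glutamate transporter that some excitatory neurons also make, stood at 340, 315, 341 and 353 CPM in glutamatergic members, whereas Aqp4, Gja1 and Gfap, which define astrocytes, stayed at or below 9.26 CPM in both classes. The oligodendrocyte precursor list summed to 518, 403, 417 and 448 CPM and was absent from only 28, 15, 38 and 38 members, so it was spread over most members. Within it Lhfpl3 stood at 461, 225, 375 and 422 CPM in glutamatergic and 697, 742, 550 and 502 CPM in GABAergic members, whereas Pdgfra, Cspg4, Olig1 and Olig2, which define precursors, stayed at or below 4.14 CPM in both classes. The oligodendrocyte list summed to 253, 77.2, 214 and 70.6 CPM. The top 5 members held 74.5%, 30.3%, 60.5% and 38.6% of its UMIs, and 1 young sham member alone held 49.0%.

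Leaving out the microglial list, described separately below, another cell type's list reached 1% of UMIs in 6 aged sham and 3 young sham members. Among them, an aged sham member with 1.53% in the astrocyte list was GABAergic by all UMIs, with rule genes at 0.578%. So were young sham members with 1.03% in the oligodendrocyte and 1.51% in the oligodendrocyte precursor list, with rule genes at 0.890% and 0.547%. The other members rich in the oligodendrocyte list had rule genes at 0.668% to 1.14% and neither transmitter. In aged sham, 2 members of 18126 and 16244 UMIs had 31.1% and 34.4% of their UMIs in the 5 neutrophil genes, with rule genes at 0.601% and 0.628%, just inside the 0.5% limit. These 2 members held 49.8% and 49.4% of the aged sham neutrophil UMIs, and the list summed to 6.19, 117, 2528 and 9.003 CPM. In young CA 1 member held 94.6% of the list. Another aged sham member, with rule genes at 4.15% of its UMIs, had 2.64% in pituitary hormone genes and held 77.6% of those UMIs in the library. Growth hormone (Gh) stood at 109 CPM in aged sham members and had no UMI in the members of the other 3 libraries. No doublet caller was run, so 1 droplet with 2 cells and 1 cell with RNA of another were not separated.

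Microglial RNA was measured in the members as background. The 16 microglial genes summed to 1533, 2552, 2306 and 1244 CPM in members and to 43810, 41398, 39113 and 37978 CPM in microglia, or 3.50%, 6.17%, 5.90% and 3.28% of the microglial level. All 16 genes had UMIs in the members of each library. Single genes lay close to that percentage: young CA ran from 3.59% (Gpr34) to 7.26% (C1qa), aged sham from 4.64% (Cx3cr1) to 7.24% (Trem2) and aged CA from 2.19% (Cx3cr1) to 4.99% (P2ry12). Single genes thus ranged around the percentage of the whole list in these 3 libraries.

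The background was unequal between members. The median member had 0.0717%, 0.0851%, 0.132% and 0.0392% of its UMIs in the list, against 4.62%, 4.43%, 4.25% and 3.97% in microglia. At least 0.5% was reached by 7, 8, 43 and 10 members. In young CA 1 member held 24.4% of all list UMIs. In aged sham it was the shallow members: 32 of the 49 with fewer than 10000 UMIs reached 0.5%, and their median was 0.605%, against 0.0529% in deeper aged sham members. Those 49 members also had 2.25% of their UMIs in ribosomal protein genes, against 0.328% in the deeper ones. Restricted to members under 0.5%, the list was at 1.86%, 2.40%, 1.97% and 1.46% of the microglial level.

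**Figure D3:**
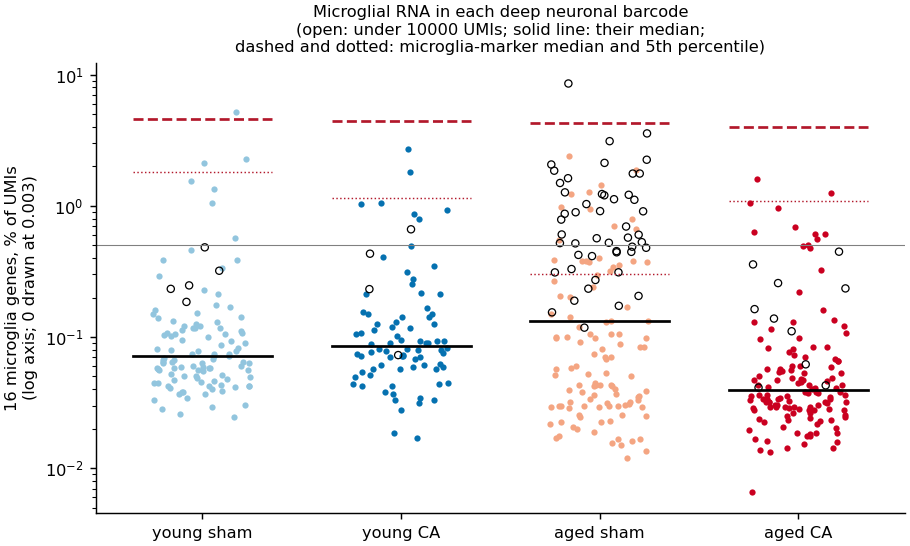
Share of each member's UMIs in the 16 microglial genes (vertical, percent, log axis) by library, with open points for members under 10000 UMIs, a solid line at the members' median, a grey line at 0.5%, and red dashed and dotted lines at the median and the 5th percentile of microglia. In aged sham 63 members reach that 5th percentile and most of them are shallow, against 3, 2 and 2 in young sham, young CA and aged CA. The percentile itself was lower in aged sham, at 0.300% against 1.81%, 1.16% and 1.09%, so these counts use unlike limits. At the common limit of 0.5% they were 43 in aged sham and 7, 8 and 10 in the others.

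CA was compared with sham within each age on the summed UMIs of the members. A gene was eligible with at least 30 UMIs in 1 of the libraries compared, and was counted as higher or lower when the log2 ratio of CPM, with 10 CPM added to each, reached 1 in size (2-fold). A fold between 2 such sums has no replicate check, and fewer cells of a type and less RNA per cell cannot be told apart in them. In young members 132 of 10419 eligible genes (1.27%) were higher in CA and 45 (0.432%) were lower. The 10 rule genes had a median log2 ratio of -0.02 with none 2-fold apart. They chose the members in both libraries, so this value describes the rule and is not a result. The 20 other genes common to neurons had a median of 0.09 with none 2-fold apart, beside a median of 0.07 over all eligible genes. The split of higher and lower genes depended on scaling: with TMM, which scales libraries on most genes and not on their totals, it was 94 higher and 66 lower.

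The genes higher in young CA were largely those that microglia express strongly. Of the 132 genes, 79 (59.8%) stood in young CA members at under 1/10 of their level in microglia of that library, against 5.25% of all eligible genes, and 41 encoded ribosomal proteins. Ctsl, which encodes the lysosomal protease cathepsin L (chromosome 13, 64359337 to 64370890), stood at 35.01 CPM in young sham and 200 CPM in young CA members, a ratio of 5.72 (4.79 to 6.86), beside 736 and 2248 CPM in microglia. Rpl32, a ribosomal protein gene, stood at 32.5 and 111 CPM. Cebpb, a transcription factor of myeloid cells, stood at 5.76 and 36.6 CPM, and Cd52, a surface protein of leukocytes, at 5.12 and 39.8 CPM. Among members under 0.5% microglial UMIs, 55 genes were higher, 42 of them among the 132, and 2 encoded ribosomal proteins; the Ctsl ratio was then 2.38 (1.82 to 3.12). With each member weighted equally 71 of 10586 eligible genes (0.671%) were higher, of which 6 encoded ribosomal proteins. With every member thinned to 5000 UMIs 46 were higher, 18 of them among the 132. Thinning left only 3345 eligible genes, so the share called was 1.38% against 1.27% and was not smaller.

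Of the 45 genes lower in young CA, 0 were under 1/10 of their microglial level in young sham, against 5.61% of all eligible genes. At or above their microglial level were 40. Among members under 0.5% microglial UMIs 44 stayed 2-fold lower, and 39 did with each member weighted equally. Fewer stayed 2-fold lower in glutamatergic members alone (22), in GABAergic members alone (13) and with each member thinned to 5000 UMIs (9). Fewer genes were also eligible in those settings, at 8660, 5073 and 3345, so a gene not kept may have been ineligible. Nr4a3, an activity-induced nuclear receptor (chromosome 4, 48045153 to 48086447), stood at 48.2 CPM in young sham and 11.3 CPM in young CA, with a UMI in 40 and 12 members, a ratio of 0.234 (0.153 to 0.346). It was low in both aged libraries, at 12.7 and 3.48 CPM. Grm3, a metabotropic glutamate receptor (chromosome 5, 9485541 to 9725170), stood at 514 and 214 CPM, a ratio of 0.416 (0.378 to 0.456), and the aged pair stood at 240 and 234 CPM. The young ratio of Grm3 was 0.464 in glutamatergic and 0.343 in GABAergic members. Trpm3, a cation channel, stood at 1049 and 464 CPM in the young libraries, Dock10, an activator of small GTPases, at 362 and 144 CPM, and Gabrg1, a GABA-A receptor subunit, at 30.1 and 6.63 CPM. For all 3 genes young sham was the higher library of the pair. Within the classes the Trpm3 ratio was under 2-fold, at 0.612 in glutamatergic and 0.679 in GABAergic members.

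In aged members 164 of 11282 eligible genes (1.45%) were higher in CA and 148 (1.31%) were lower, with a median log2 ratio of 0.06 over all eligible genes. With TMM 127 were higher and 170 lower. Of the 164 higher genes, 5 (3.05%) were under 1/10 of their microglial level, against 6.76% of all eligible genes, 151 were at or above it, and none encoded a ribosomal protein. Rad18, a ubiquitin ligase of DNA damage tolerance (chromosome 6, 112619850 to 112696686), stood at 11.4 CPM in aged sham with a UMI in 30 members and at 75.3 CPM in aged CA with a UMI in 117 members, a ratio of 6.61 (4.92 to 9.04). In young sham and young CA it stood at 18.6 and 32.7 CPM. Zkscan16, a zinc finger gene (chromosome 4, 58943628 to 58958355), stood at 32.7, 62.4, 37.5 and 145 CPM in the 4 libraries and at no more than 0.551 CPM in microglia. Its aged ratio was 3.86 (3.26 to 4.59). In both genes aged CA was the highest of the 4 libraries, and the ratios had overlapping intervals in glutamatergic (8.01 and 3.70) and GABAergic (7.69 and 4.02) members.

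Mrpl41, a mitochondrial ribosomal protein gene, stood at 13.7, 21.4, 14.1 and 68.5 CPM, and Ccdc34, a coiled-coil protein gene, at 24.8, 35.9, 29.95 and 104 CPM, again highest in aged CA. Ovgp1 stood at 7.05, 22.6, 10.3 and 48.7 CPM. Hao1, which encodes a glycolate oxidase, had no UMI in aged sham members and 86 UMIs in 43 aged CA members, at least 26.2-fold higher when the aged sham sum is set at a floor of 3 UMIs, while the counting interval of the ratio starts at 20.9. Cxcl10, an interferon-induced chemokine, had no UMI in aged sham members and 83 UMIs in 54 aged CA members, at least 25.3-fold higher by the same floor, with an interval that starts at 20.1. Cxcl10 also stood at 2.37 and 1205 CPM in microglia of these 2 libraries.

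The genes lower in aged CA were a mixture. Of the 148, 38 (25.7%) were under 1/10 of their microglial level in aged sham, against 5.04% of all eligible genes, and 72 were at or above it. Cst3, the protease inhibitor cystatin C, stood at 903, 688, 1558 and 450 CPM in members and at 23916, 12745, 23507 and 13468 CPM in microglia. In GABAergic members its aged ratio was 0.182 and in glutamatergic members 0.583. Olfml3, a secreted glycoprotein of microglia, stood at 44.0 and 3.48 CPM in the aged pair of libraries and at 740 and 119 CPM in microglia. Sema6d, an axon guidance protein, was in contrast low in microglia (3.56 to 22.7 CPM). It stood at 433, 435, 429 and 150 CPM in members, with an aged ratio of 0.367 in glutamatergic and 0.237 in GABAergic members. Slc16a7, a monocarboxylate transporter of neurons, stood at 193, 124, 164 and 35.6 CPM, and its aged ratio was 0.211 in glutamatergic and 0.215 in GABAergic members. In microglia Slc16a7 stood at 130, 58.3, 128 and 31.3 CPM, also lowest in aged CA. For Sema6d and Slc16a7 aged CA was the lowest library, and among members under 0.5% microglial UMIs the aged ratios were 0.347 and 0.209.

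Counts in aged members depended on how members were weighted. The 148 lower genes became 359 with each member thinned to 5000 UMIs and 504 with each member weighted equally, 45 of the latter encoding ribosomal proteins, and 122 with members under 10000 UMIs left out. Thinning also cut the eligible genes from 11282 to 4967. Among members under 0.5% microglial UMIs they were 127, and the higher genes were 168, 148 of them among the 164.

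**Figure D4:**
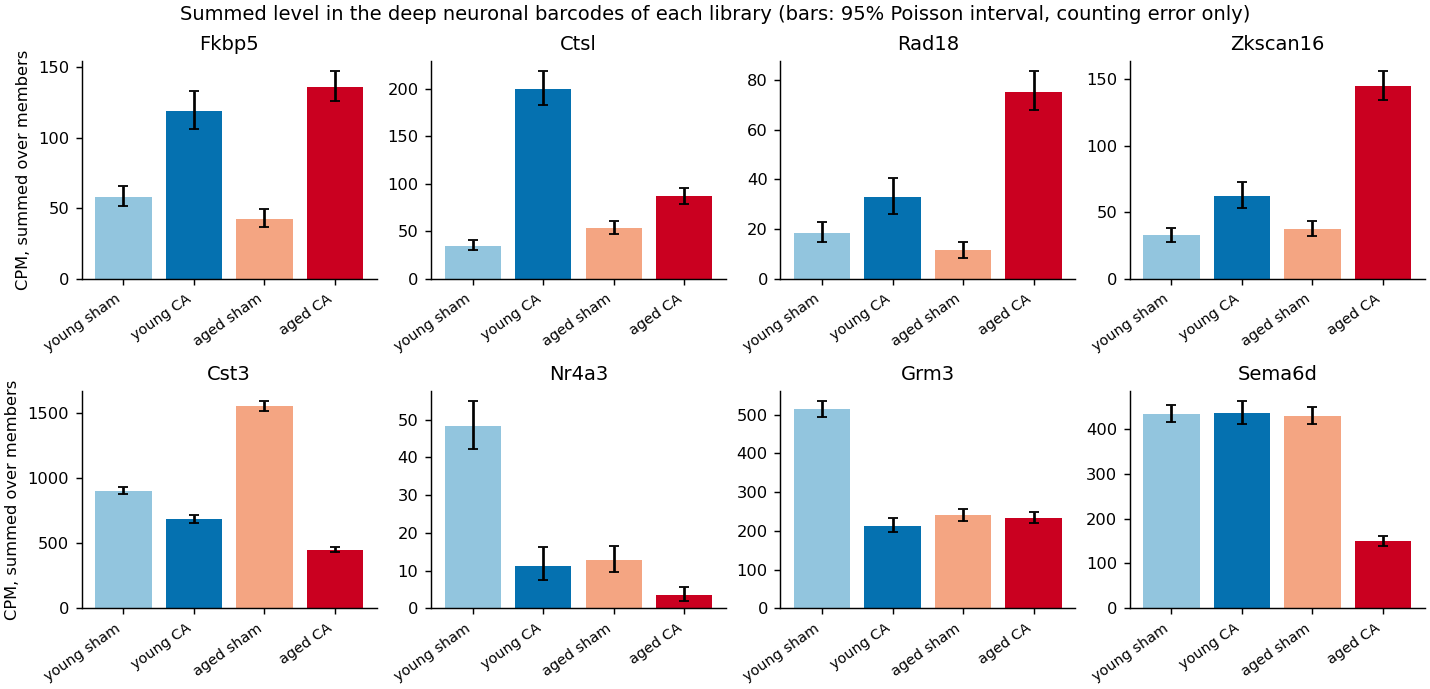
CPM in members of the 4 libraries for 8 genes described in the text, as bars from 0 with exact Poisson intervals that cover counting error only. Rad18 and Zkscan16 are highest in aged CA, Sema6d is lowest there, Nr4a3 and Grm3 are highest in young sham, and Fkbp5 is higher in both CA libraries than in the sham library of its age.

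The 2 ages were set side by side over the 10176 genes eligible in both. Across genes, which are not independent replicates, Pearson's r of the young and aged log2 ratios was 0.181 and Spearman's rank coefficient was 0.195. Of 117 genes higher in young CA and 122 higher in aged CA, 4 were shared (3.42% and 3.28%), all of them unnamed gene models outside the rule for named genes: Gm2087, B530045E10Rik, Gm48877 and Gm49906. Another 4 genes, S100a8 and S100a9 among them, were higher in young CA and lower in aged CA, and 0 were the reverse. Over all genes eligible at each age, 1.27% were higher and 0.432% lower in young CA, and 1.45% and 1.31% in aged CA. Of 41 lower in young CA and 134 lower in aged CA, 14 were shared (34.1% and 10.4%). These 14, named after their values were seen, included Bcas1, a gene of oligodendrocytes, and Lef1 and Tcf7l2, transcription factors of the thalamic list. Tcf7l2 stood at 35.9, 11.7, 91.2 and 31.7 CPM in members and was higher in microglia, at 197, 157, 188 and 131 CPM. Lef1 stood at 25.2, 2.73, 79.1 and 20.1 CPM and had a UMI in 5, 2, 19 and 7 members, 1 of which held 73.7% of the young sham UMIs. Bcas1 stood at 13.4, 0.390, 12.96 and 1.23 CPM and had a UMI in 5, 1, 9 and 2 members. Both of these genes thus lay in few members of each library. In GABAergic members the oligodendrocyte list went the other way in aged mice, with a summed ratio of 2.64 against 0.330 in all members.

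**Figure D5:**
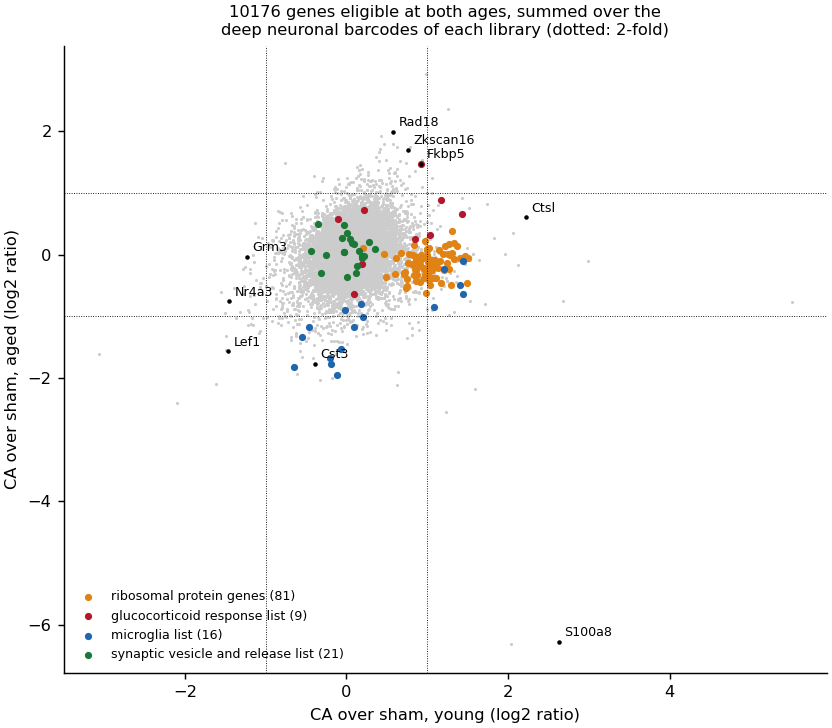
Log2 ratio of CA to sham in young members (horizontal) against that in aged members (vertical) for 10176 genes, with 10 CPM added to each level, dotted lines at 2-fold, and 4 lists coloured (ribosomal protein, glucocorticoid response, microglia and synaptic vesicle genes). Ribosomal protein genes spread to the right with 41 past 2-fold in young and 0 in aged, and synaptic vesicle genes gather near 0 with none past 2-fold.

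A list of genes that respond to glucocorticoids, the stress hormones of the adrenal gland, was described gene by gene. Fkbp5, a co-chaperone of the glucocorticoid receptor that the hormone induces (chromosome 17, 28399094 to 28517527, minus strand), stood at 58.3 (51.6 to 65.6), 119 (106 to 133), 42.7 (36.9 to 49.2) and 136 (126 to 147) CPM. It had a UMI in 64, 58, 74 and 113 members. Both CA libraries lay above both sham libraries, and the intervals of CA and sham did not overlap at either age. The ratio was 2.05 (1.73 to 2.42) in young and 3.19 (2.71 to 3.77) in aged members, and with 10 CPM added only the aged log2 ratio of 1.47 was past 2-fold, the young one being 0.92. In glutamatergic members the ratio was 2.08 (1.68 to 2.60) in young and 3.10 (2.51 to 3.85) in aged, and in GABAergic members 1.84 (1.33 to 2.55) and 3.53 (2.60 to 4.85).

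Fkbp5 was also higher in microglia, at 195, 683, 102 and 762 CPM. The members' level was 29.9%, 17.5%, 41.7% and 17.9% of the microglial level, above the 3.28% to 6.17% of the microglial list. Among members under 0.5% microglial UMIs the ratio was 1.57 (1.28 to 1.91) in young and 3.28 (2.74 to 3.96) in aged mice.

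Of the other genes of that list, 3 were 2-fold higher in young CA: Nfkbia, the inhibitor of NF-kappaB, at 2.56 and 23.8 CPM, Mt1, a metallothionein, at 5.55 and 24.95 CPM, and Tsc22d3, a hormone-induced leucine zipper protein, at 7.26 and 25.3 CPM. In the same libraries the members' levels of these 3 genes were 2.99% to 14.8% of the microglial level in young sham and 8.94% to 19.0% in young CA. Among members under 0.5% microglial UMIs none of the 3 was 2-fold apart in young mice, at log2 ratios of 0.52, 0.69 and 0.32, and the interval of the Tsc22d3 ratio (0.896 to 3.81) held 1. In young GABAergic members Tsc22d3 was lower in CA, at a ratio of 0.632 (0.145 to 2.19). In aged members Mt1 stood at 11.4 and 29.5 CPM and Nfkbia at 5.59 and 14.5 CPM, under 2-fold with 10 CPM added. Zbtb16, a zinc finger repressor, stood at 146, 271, 165 and 198 CPM. Sgk1, a hormone-induced kinase, stood at 143, 154, 161 and 99.0 CPM, so it was not higher in aged CA. In all, 3 of 9 eligible genes of the list were 2-fold higher in young CA, beside 1.27% of all eligible genes, and 1 of 11 in aged CA, beside 1.45%. None was 2-fold lower, and the list's median log2 ratio was 0.85 and 0.58.

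The list of interferon and MHC class I genes, which present antigen and answer to viral alarm signals, was called in young members only by the fold used, and the difference between the ages was not tested. In young members 4 of 7 eligible genes were 2-fold higher in CA, beside 1.27% of all eligible genes, and the median log2 ratio was 1.02. Of these, Bst2 stood at 3.42 and 18.3 CPM, Ifitm3 at 1.07 and 16.4 CPM, and H2-D1, an MHC class I heavy chain, at 12.4 and 41.7 CPM. In aged members 0 of 7 were 2-fold apart, beside 1.45% higher and 1.31% lower of all eligible genes, and the median was 0.05, with H2-D1 at 35.3 and 21.7 CPM. In young members Bst2, Ifitm3 and H2-D1 stood at 1.84% to 5.20% of their microglial level, beside 3.50% and 6.17% for the microglial list. Microglia of young CA were themselves higher than those of young sham in these genes, at 609 against 110 CPM for Bst2 and 880 against 57.9 CPM for Ifitm3, and among members under 0.5% microglial UMIs H2-D1 stood at 7.25 and 15.98 CPM, a log2 ratio of 0.59 that is under 2-fold.

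Lists of neuronal signalling were mostly within 2-fold. The 21 genes of the synaptic vesicle had a median log2 ratio of 0.04 in young and 0.05 in aged members, and the 21 adhesion genes -0.16 and -0.18, with none of either 2-fold apart. The 4 AMPA receptor subunits stood at -0.00 and 0.21, the NMDA receptor subunits at 0.33 and -0.39, and none was 2-fold apart. Among 12 GABA-A receptor subunits Gabrg1 was 2-fold lower in young CA and Gabra2 2-fold lower in aged CA; Gabra2 stood at 547, 311, 451 and 216 CPM. Kcnd2, the A-type potassium channel that Kcnip4 and Dpp10 partner, stood at 3268, 1953, 3387 and 1843 CPM, lower in CA at both ages by less than 2-fold. Of 11 eligible immediate early genes, which neurons switch on with activity, Nr4a3 alone was 2-fold apart in young, and 0 of 14 were in aged members. Of 5 heat shock genes none was 2-fold apart in young, and Hspa8, a constitutive chaperone, was 2-fold lower in aged CA at 70.4 and 29.3 CPM. No gene of the nuclear-encoded respiratory chain list was 2-fold apart, with median log2 ratios of 0.41 over 17 genes in young and -0.03 over 18 in aged members.

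Aged and young members were compared within each surgery. These comparisons share their libraries with the comparisons of CA and sham, so their values are not independent of them. Between the sham libraries 65 of 10884 eligible genes (0.597%) were 2-fold higher in aged and 12 (0.11%) were lower. Without members that had 1% or more of their UMIs in another cell type's list, 40 genes were higher. With each member thinned 223 of 4525 eligible genes were higher, and with each weighted equally 274 of 11394 were, 71 of them for ribosomal proteins. Tenm3, an adhesion protein of circuit wiring, stood at 421 and 918 CPM in young and aged sham, and at 660 and 549 CPM in young and aged CA. Grin3a, an NMDA receptor subunit, stood at 74.3 and 185 CPM, Shisa6, an AMPA receptor partner, at 145 and 338 CPM, and Vwc2, a secreted BMP antagonist, at 54.9 and 152 CPM in young sham and aged sham. Htr2a, a serotonin receptor, was lower, at 53.6 and 16.3 CPM, as was Nwd2 at 471 and 185 CPM. Actb, the cytoskeletal actin that microglia express strongly, stood at 154 and 369 CPM. All 12 lower genes were at or above their microglial level in young sham, whereas 14 of the 65 higher genes (21.5%) were under 1/10 of it in aged sham, against 4.83% of all eligible genes.

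Between the CA libraries 67 of 10760 eligible genes (0.623%) were 2-fold higher in aged and 103 (0.957%) were lower. Adamtsl1, an extracellular matrix protein gene, stood at 82.6 CPM in young CA and 211 CPM in aged CA, and Efr3a, a scaffold of lipid kinases at the plasma membrane, at 149 and 346 CPM. Tafa1, a secreted neuronal protein, stood at 1466 and 469 CPM in these libraries and at 1231 and 1145 CPM in young sham and aged sham. Apoe, the lipid carrier that microglia and astrocytes make, stood at 221 CPM in young CA and 65.7 CPM in aged CA members, beside 3963 and 2963 CPM in microglia. Of the 103 lower genes, 26 (25.2%) were under 1/10 of their microglial level, against 5.28% of all eligible genes. Among the sham and CA libraries alike, the members' microglial list was unequal between ages, at 1533 and 2306 CPM in sham and 2552 and 1244 CPM in CA.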

How the data were processed

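The deposited matrices are raw UMI counts of each gene in each barcode. Cell Ranger 7.1.0 and mm10 were used by the authors, per the submitters' processing notes. Not given in the sources used here were the annotation, the calling of barcodes and the treatment of introns. Rows that share a symbol were summed, which left 32245 symbols from 32285 rows, and 32196 of them matched GENCODE M21 (GRCm38) by gene identifier, the source of positions and spans. The rule for members and all 47 gene lists were chosen with earlier results of these data known, so their direction in these data is not independent support.

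Counts were summed over the members of a library and scaled to CPM. Log2 ratios had 10 CPM added to each level. Genes with at least 30 UMIs in 1 of the 2 libraries were eligible, and a 2-fold ratio is a size, not a test, because each group was 1 library. Shares have exact Clopper-Pearson, levels exact Poisson and ratios conditional binomial 95% intervals. Thinning drew 5000 UMIs per barcode without replacement (seed 1). No doublet caller was run. Beside the list genes, the text could name for each comparison the 12 highest and 12 lowest genes past 2-fold. These had a UMI in at least 10 members of the higher library, no member with over 25% of the UMIs, and a counting interval of the ratio that left out 1. Predicted genes (Gm and Rik symbols), Xist, Y-linked, mitochondrial and haemoglobin genes, and genes of the lists of other cell types, were counted and not named by this rule. Some genes of the lists are not reported here. The scripts were tested on simulated data. Alternatives are given in the closing section. Python 3.11.15, numpy 2.4.6, scipy 1.17.1, pandas 2.3.3, matplotlib 3.10.9, R 4.3.3 and edgeR 4.0.16 (TMM factors) were used.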

Additional observations from a re-analysis of the deposited data

Results flagged for a closer look

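S100a8 and S100a9, which encode the calprotectin subunits of neutrophils, went opposite ways at the 2 ages in the members. The log2 ratio of CA to sham was 2.63 in young and -6.28 in aged members for S100a8, and 2.04 and -6.32 for S100a9. The median over the eligible genes of the neutrophil list was 2.34 in young (2 genes) and -5.34 in aged members (4 genes). S100a8 stood at 2.56 and 67.8 CPM in sham and CA of young mice and at 1019 and 3.27 CPM in those of aged mice. In young CA 1 member held 94.6% of the list's UMIs, and in aged sham 2 members held 49.8% and 49.4%, so each value rests on 1 or 2 barcodes. With 1 library per group the difference between the ages was not tested.

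The list of monoamine and cholinergic neurons also went opposite ways, with a median log2 ratio of -1.07 over 2 eligible genes in young and 1.12 over 5 in aged members. In aged CA 1 member held 87.7% of the list's UMIs and in young sham 1 member held 78.4%. This difference was not tested either.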

How the results depend on the processing

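No paired analysis was possible because each group was 1 library. 6 settings were added after seeing the data: GABAergic members only, a minimum of 10000 UMIs for the gene counts, classes and microglial share, no members with 1% or more of another cell type's list (microglia aside), none with a barcode in another library, equal weight per member, and the microglial share in members under 0.5%. With a minimum of 3000 UMIs aged sham had 285 members against 157. Glutamatergic shares were 57.1%, 60.7%, 47.1% and 56.4% without thinning and 17.0%, 22.6%, 16.6% and 13.6% when 2 UMIs were required (young sham, young CA, aged sham, aged CA), and GABAergic shares with 2 UMIs were 14.3% in young sham and 20.4% in aged sham.

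Microglial RNA as a share of the microglial level was 4.98%, 5.08%, 11.9% and 3.08% as a mean over members, 1.55%, 1.92%, 3.10% and 0.987% as a median, and 1.86%, 2.40%, 1.97% and 1.46% in members under 0.5%. With a mitochondrial limit of 5% it was 6.27% in aged sham and 3.63% in aged CA, and with 10000 UMIs 3.999% in aged sham. The order of young CA and aged sham thus depends on how members are weighted.

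With a pseudocount of 1 CPM, CA was higher and lower for 368 and 227 genes in young and 560 and 538 in aged members, and aged was higher and lower for 274 and 118 in sham and 378 and 315 in CA. Thinned members gave 46 higher in young CA, 359 lower in aged CA, 223 and 25 between sham libraries, and 101 and 55 between CA libraries. With 100 UMIs required, 82 were higher in young CA and 55 lower in aged than young CA. Glutamatergic members alone gave 82 lower in young CA, 42 lower in aged sham and 141 higher in aged than young CA. GABAergic members alone, whose sums are smallest, gave 213 and 126 in young, 261 lower in aged CA, 228 and 110 between sham libraries, and 169 and 172 between CA libraries. Members under 0.5% microglial UMIs gave 55 higher in young CA, equal weight gave 71 and 83 in young, 504 lower in aged CA and 274 higher in aged sham, and without members rich in another cell type's list 40 were higher in aged sham.

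In GABAergic members 8 named log2 ratios changed sign. For CA against sham these were Plekhg1 (0.0763) and Sema5a (0.31) in young and Adgrg6 (-0.00931) and Prr5l (0.47) in aged members. For age they were Rmst (-1.46) and Rspo3 (0.12) in sham and Adgrg6 (-0.21) and Smoc2 (0.20) in CA. The oligodendrocyte sum was 2.64 times sham in aged GABAergic members. The respiratory chain sum in aged members was 0.817 times sham with thinning and 0.784 with equal weight, against 1.08. Of the other values of named genes 784 stayed within and 198 moved beyond their counting interval in the same direction, and of the list sums 65 and 52. The cause of these shifts was not tested. With 1 library per group, depth limits only counting precision, and the spread between mice is unknown.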
